A study of Homo sapiens with 6 samples.

Results

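Chromatin modifying enzymes add or remove small chemical groups on histones and DNA, and 72 protein-coding genes for them were followed in A375 melanoma cells with and without the transcription factor SOX10. The members were all protein-coding genes in GENCODE release 29 whose symbol begins with KDM, KMT, HDAC, SIRT, DNMT, SETD, PRMT or EZH followed by a digit, together with TET1, TET2 and TET3. They are 72 of the 58721 genes of the count table, 19940 of which are protein-coding. By family there were 19 lysine methyltransferases (KMT, SETD and EZH), 20 lysine demethylases (KDM), 11 zinc-dependent deacetylases (HDAC), 8 arginine methyltransferases (PRMT), 7 NAD-dependent deacylases (SIRT), 4 DNA methyltransferases (DNMT) and 3 methylcytosine dioxygenases (TET). The rule goes by symbol, so it leaves out enzymes with other names, such as EHMT1, NSD1, DOT1L and CARM1. These stand in companion lists below.

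RNA sequencing was done on 6 libraries of A375, an established human melanoma cell line from ATCC with a mutant BRAF gene, cultured in DMEM containing 10% FBS. There, 3 libraries carried a guide RNA against SOX10 and are labelled SOX10 knockout, and 3 carried a guide RNA against mCherry, a fluorescent protein gene foreign to the human genome, and are labelled WT (control below). No drug, time course or further allele is named in the labels. The cutting site of the SOX10 guide, and whether a clone or a mixed population was sequenced, were not given in the sources used here. Nothing in the labels says that the replicates came from separate cultures, so the p-values rest on a spread between libraries that may be technical.

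Histone methyltransferases and demethylases write and remove marks that either accompany transcription, such as H3K4 methylation, or accompany silencing, such as H3K27 methylation by the polycomb complex. Deacetylases take acetyl groups off histone tails and mostly work inside corepressor complexes. DNA methyltransferases place 5-methylcytosine, and TET enzymes oxidise it. SOX10 is a transcription factor that neural crest cells, melanocytes and glia depend on. Most of these enzymes are expressed in nearly all cell types rather than in melanocytes alone.

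SOX10 (ENSG00000100146; GRCh38 chromosome 22, 37970686 to 37987422, minus strand) stood at 47.2, 47.8 and 41.5 CPM in knockout replicates 1, 2 and 3 and at 241, 237 and 223 CPM in control replicates 1, 2 and 3. CPM is the count scaled to library size. The groups did not overlap, the log2 fold change was -2.36 with a standard error (SE) of 0.08 (edgeR's quasi-likelihood test with Benjamini-Hochberg adjustment, adjusted p = 1.84e-07). Over the 20 assignments of libraries an exact two-sided permutation test gave p = 0.1, as low as 3 against 3 allows. Libraries held 70075002 to 78148565 counts in genes. Of the other melanocyte markers, MITF averaged 138 ± 2.29 CPM in knockout and 57.5 ± 2.15 CPM in control libraries (SD, n = 3 each) and S100B 1.28 ± 0.134 CPM in knockout and 32.9 ± 4.34 CPM in control libraries. DCT was lower too, at 0.0657 ± 0.0258 CPM in knockout and 1.62 ± 0.175 CPM in control libraries, PMEL and MLANA were under 2 CPM in all libraries, and TYR had 0 counts in knockout and 1 count in control libraries in all. Of 13 tested melanocyte and neural crest markers other than SOX10, 4 were higher and 7 lower, among them SOX9 (69.7 ± 7.02 CPM in knockout and 2.00 ± 0.228 CPM in control libraries), ERBB3 (12.2 ± 1.52 CPM in knockout and 276 ± 32.0 CPM in control libraries) and NGFR (8.99 ± 0.0452 CPM in knockout and 79.8 ± 5.47 CPM in control libraries). Markers of other cell types also moved: the summed level of 14 fibroblast markers was 220 to 249 CPM in knockout and 142 to 151 CPM in control libraries, with 10 higher and 2 lower past the threshold (1 lower without knockout replicate 2 or 3 or control replicate 2), and that of 12 keratinocyte markers, 8 of them tested, was 309 to 324 CPM in knockout and 232 to 246 CPM in control libraries, with 4 higher (2 without control replicate 2) and 1 lower. The lower keratinocyte marker was KRT14, at 0.249 ± 0.0110 CPM in knockout and 7.16 ± 0.789 CPM in control libraries. The higher ones included KRT18 (216 ± 6.48 CPM in knockout and 155 ± 3.97 CPM in control libraries) and KRT5 (0.788 ± 0.0964 CPM in knockout and 0.110 ± 0.00185 CPM in control libraries). Among markers with few counts, CDH1 had 2 counts in knockout and 6 in control libraries, PTPRC 6 in knockout and 14 in control libraries, and CD68 12 in knockout and 0 in control libraries. The 11 leukocyte and endothelial markers summed to 5.15 to 6.73 CPM in knockout and 19.7 to 21.2 CPM in control libraries, and of the 6 tested, CDH5 and PECAM1 were higher and LYZ and KDR lower. LYZ averaged 1.64 ± 0.360 CPM in knockout and 12.1 ± 1.80 CPM in control libraries. Their part in the results below was not tested, and in bulk RNA fewer cells of a type and less RNA per cell cannot be told apart.

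Of the 72 members, 67 had enough counts to be tested. Past an adjusted p of 0.05 over all 19263 tested genes, 20 members were lower in knockout cells (29.9% of those tested) and 2 were higher (2.99%), while 45 did not pass. Over all tested genes 28.0% passed, 14.0% lower and 14.0% higher, and over the 13928 tested protein-coding genes 17.1% were lower and 15.9% were higher. The share of members past the threshold in either direction, 32.8%, was close to the 33.0% of protein-coding genes. The median log2 fold change was -0.14 over the members, -0.02 over protein-coding genes and -0.02 over all tested genes. At an unadjusted p under 0.05 in edgeR, 3 members were higher and 26 lower. None of the DNMT, TET, HDAC, KDM and PRMT members was higher at that level, nor past the threshold with DESeq2 or limma-voom. In sign, 50 of the 67 were below 0 and 17 above. The knockout and control libraries did not overlap for 29 members (43.3%), 24 of them lower, against 41.6% of all tested genes and 46.6% of tested protein-coding genes. Most shifts were small: of the 22 members past the threshold, 7 had a log2 fold change of at least 0.5 in size, all of them lower. The number of members lower past the threshold was 10 without control replicate 2, 11 without knockout replicate 2, 12 without control replicate 1 and 13 without knockout replicate 3, and the number higher was 5 without control replicate 3.

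**Figure D1:**
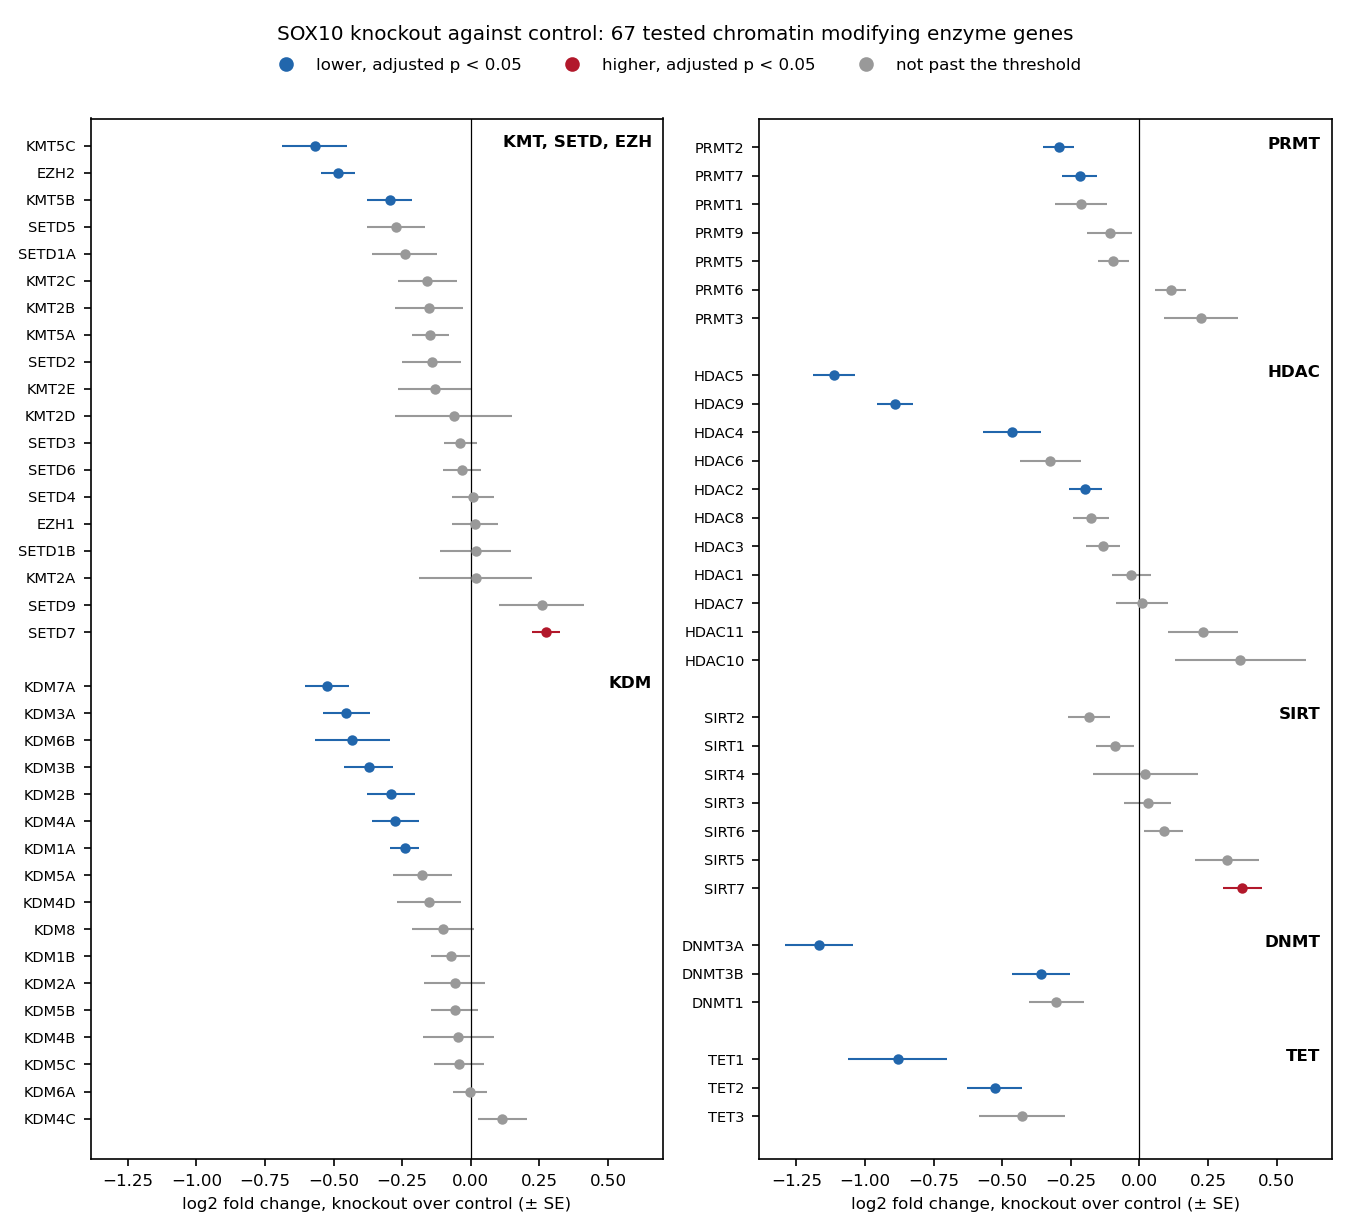
Log2 fold change of SOX10 knockout over control for the 67 tested members, grouped by family and sorted within it. Points are the edgeR estimates and bars their standard errors. Blue members were lower and red members higher past an adjusted p of 0.05, and grey members did not pass. The 20 blue points reach from -1.17 for DNMT3A to -0.20 for HDAC2, and the 2 red points are SETD7 and SIRT7.

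All 3 tested DNA methyltransferases had log2 fold changes below 0, 2 of them past the threshold (17.1% of protein-coding genes were lower past it). The de novo enzyme DNMT3A had the largest decrease of all members. DNMT3A (ENSG00000119772; chromosome 2, 25227855 to 25342590, minus strand), which methylates unmethylated cytosines, stood at 3.28, 3.05 and 2.82 CPM in knockout replicates 1, 2 and 3 and at 7.91, 6.49 and 6.16 CPM in control replicates 1, 2 and 3. Every knockout library lay below every control library, a 2.25-fold lower level (log2 fold change -1.17, SE 0.12, edgeR adjusted p = 0.000156). DNMT3B, the other de novo methyltransferase, fell to 5.89 ± 0.606 CPM in knockout cells against 7.56 ± 0.596 CPM in control cells (SD, n = 3 each; log2 fold change -0.36, edgeR adjusted p = 0.0355). Its call was lost without knockout replicate 2 or 3 or control replicate 1 or 2, at edgeR adjusted p = 0.0911, 0.103, 0.117 and 0.122. DNMT1, which copies methylation to the new strand after replication, was the most abundant member of the family by length, with 26.96 CPM per kb of exon in knockout and 33.3 in control cells. It stood at 293, 263 and 236 CPM in knockout replicates 1, 2 and 3 and at 350, 339 and 288 CPM in control replicates 1, 2 and 3. The groups overlapped, since knockout replicate 1 lay above control replicate 3, and the log2 fold change of -0.30 did not pass (edgeR adjusted p = 0.0553). DNMT1 passed without control replicate 3 (edgeR adjusted p = 0.0108), without knockout replicate 1 (0.0314), without a filter on low counts (0.0322) and with DESeq2 (adjusted p = 0.0376). DNMT3L, a cofactor of the de novo enzymes without activity of its own, had 1 count in each knockout library and 0 in the control libraries and was not tested.

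All 3 TET enzymes had log2 fold changes below 0, and 2 of them passed (17.1% of protein-coding genes were lower past the threshold). TET1 (ENSG00000138336; chromosome 10, 68560656 to 68694482, plus strand), a dioxygenase that turns 5-methylcytosine into 5-hydroxymethylcytosine, stood at 6.41, 5.24 and 4.31 CPM in knockout replicates 1, 2 and 3 and at 11.6, 9.98 and 7.72 CPM in control replicates 1, 2 and 3. Within each group replicate 1 was the highest and replicate 3 the lowest, and the groups did not overlap (log2 fold change -0.88, SE 0.18, edgeR adjusted p = 0.0068). TET2 (ENSG00000168769; chromosome 4, 105145875 to 105279816, plus strand), which lacks the CpG-binding CXXC domain that TET1 and TET3 carry, stood at 24.4, 23.0 and 21.1 CPM in knockout and at 36.1, 34.0 and 28.5 CPM in control replicates 1, 2 and 3. These groups did not overlap either (log2 fold change -0.53, SE 0.10, edgeR adjusted p = 0.00468). TET3, the most abundant of the family by length at 3.46 CPM per kb of exon in knockout and 4.65 in control cells, stood at 49.9, 41.5 and 35.8 CPM in knockout and at 68.4, 56.4 and 46.3 CPM in control replicates 1, 2 and 3. Knockout replicate 1 lay above control replicate 3, and the log2 fold change of -0.43 did not pass (edgeR adjusted p = 0.0806). TET3 passed without control replicate 3 (edgeR adjusted p = 0.0131), without knockout replicate 1 (0.0368), without a filter (0.0345) and with DESeq2 (adjusted p = 0.0371).

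Of the 11 zinc-dependent deacetylases, 4 were lower (36.4%, against 17.1% of protein-coding genes) and none higher past the threshold. Class IIa, the group that binds MEF2 factors and shuttles between nucleus and cytoplasm, had 3 of its 4 genes lower, with a class median log2 fold change of -0.68. HDAC5 (ENSG00000108840; chromosome 17, 44076746 to 44123702, minus strand) stood at 8.27, 9.16 and 8.11 CPM in knockout and at 17.7, 18.9 and 18.6 CPM in control replicates 1, 2 and 3. The replicates of each group lay close together and the groups far apart, with a 2.16-fold lower level in knockout cells (log2 fold change -1.11, SE 0.08, edgeR adjusted p = 1.12e-05). HDAC9 (ENSG00000048052; chromosome 7, 18086949 to 19002416, plus strand) stood at 9.66, 9.79 and 9.33 CPM in knockout and at 17.8, 18.0 and 17.6 CPM in control replicates 1, 2 and 3. The replicates lay close together here too, and the groups did not overlap (log2 fold change -0.89, SE 0.06, edgeR adjusted p = 1.55e-05). HDAC4 averaged 11.8 ± 1.08 CPM in knockout and 16.3 ± 1.79 CPM in control cells (SD, n = 3 each; log2 fold change -0.46, edgeR adjusted p = 0.0108, and 0.0547 without control replicate 2). HDAC7, the fourth gene of the class, averaged 28.6 ± 2.84 CPM in knockout and 28.5 ± 2.49 CPM in control cells (log2 fold change 0.01, edgeR adjusted p = 0.959).

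Class I deacetylases had 1 of 4 genes lower past the threshold (17.1% of protein-coding genes were). HDAC1 and HDAC2 of this class work in the SIN3, NuRD and CoREST corepressors and HDAC3 in NCoR, while HDAC8 is not known as a subunit of these. HDAC1 was the most abundant deacetylase by length, with 60.2 CPM per kb of exon in knockout and 61.5 in control cells. It stood at 232, 245 and 239 CPM in knockout and at 225, 243 and 263 CPM in control replicates 1, 2 and 3, and the groups overlapped (log2 fold change -0.03, edgeR adjusted p = 0.798). HDAC2 averaged 204 ± 7.07 CPM in knockout and 234 ± 9.25 CPM in control cells (SD, n = 3 each; log2 fold change -0.20, edgeR adjusted p = 0.0395). Its call was lost when any library was left out, with edgeR adjusted p = 0.131, 0.146 and 0.0635 without knockout replicates 1, 2 and 3 and 0.0501, 0.147 and 0.0726 without control replicates 1, 2 and 3. The other 5 deacetylases that did not pass ranged from -0.33 (HDAC6, a tubulin deacetylase) to 0.37 (HDAC10, a polyamine deacetylase). HDAC6 passed without control replicate 3 (edgeR adjusted p = 0.021) and with DESeq2 (adjusted p = 0.0475). HDAC10 was at 0.676 ± 0.0767 CPM in knockout and 0.523 ± 0.130 CPM in control cells, and 55.8% of its exon bases also belong to MAPK12 on the same strand, so reads there may have been left uncounted.

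Of the 7 sirtuins, 1 was higher (14.3%, against 15.9% of protein-coding genes) and none lower past the threshold. SIRT7 (ENSG00000187531; chromosome 17, 81911939 to 81921323, minus strand), a nucleolar deacylase tied to ribosomal RNA transcription, stood at 13.96, 13.7 and 12.8 CPM in knockout and at 10.8, 10.2 and 10.2 CPM in control replicates 1, 2 and 3. All knockout libraries lay above all control libraries (log2 fold change 0.37, SE 0.07, edgeR adjusted p = 0.0046). SIRT1, the most abundant by length at 10.1 CPM per kb of exon in knockout and 10.7 in control cells, stood at 48.4, 44.8 and 44.5 CPM in knockout and at 51.2, 49.5 and 45.6 CPM in control replicates 1, 2 and 3. Its groups overlapped, and the log2 fold change of -0.09 did not pass (edgeR adjusted p = 0.405). The mitochondrial sirtuins SIRT3, SIRT4 and SIRT5 had log2 fold changes of 0.03, 0.02 and 0.32, none past the threshold, although SIRT5 passed without control replicate 3 (edgeR adjusted p = 0.0317), with total counts (0.0395) and with DESeq2 (adjusted p = 0.0437). No sirtuin was lower with DESeq2 or limma-voom either, and 1 was at an unadjusted p under 0.05 in edgeR.

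**Figure D2:**
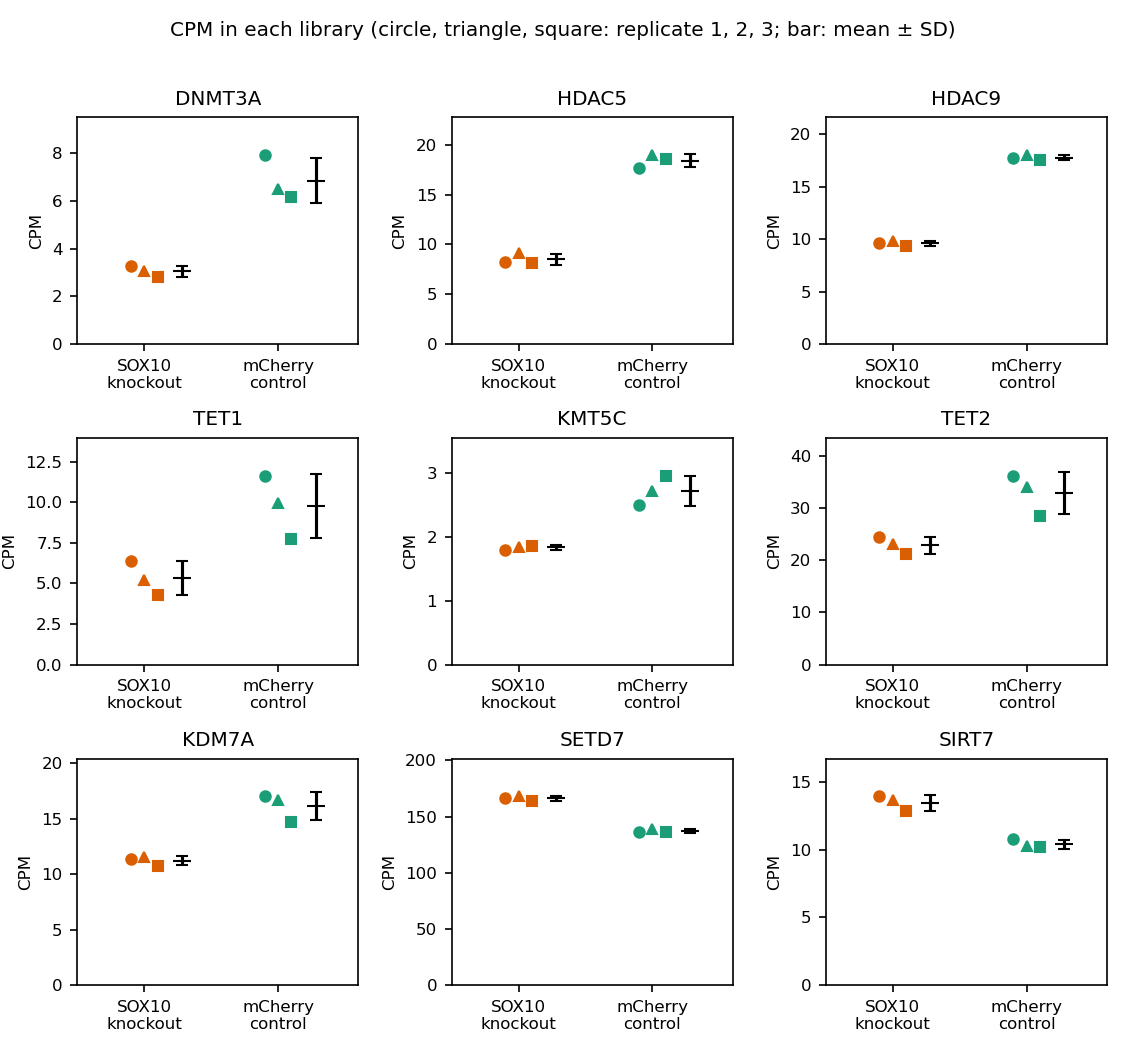
CPM in each library for the 7 members past the threshold with a log2 change of at least 0.5 in size and for the 2 members that were higher. Knockout libraries are drawn left of control libraries, symbols stand for replicates 1, 2 and 3, and bars give the mean ± SD. In every panel the groups are apart. TET1 runs from 4.31 to 6.41 CPM in knockout and from 7.72 to 11.6 CPM in control libraries.

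Of the 19 lysine methyltransferases, 3 were lower (15.8%) and 1 higher (5.26%) past the threshold. Over protein-coding genes these shares were 17.1% and 15.9%. EZH2 (ENSG00000106462; chromosome 7, 148807383 to 148884321, minus strand), the catalytic subunit of polycomb repressive complex 2, had 17.0 CPM per kb of exon in knockout and 23.8 in control cells. By this measure it was the most abundant of the family in control cells, where KMT5A had 19.3, and came after KMT5A, with 17.4, in knockout cells. It stood at 73.1, 77.2 and 80.4 CPM in knockout and at 106, 105 and 112 CPM in control replicates 1, 2 and 3. The knockout libraries all lay below the control libraries (log2 fold change -0.48, SE 0.06, edgeR adjusted p = 0.000517). Its paralogue EZH1 averaged 19.0 ± 0.926 CPM in knockout and 18.8 ± 1.80 CPM in control cells (log2 fold change 0.02, edgeR adjusted p = 0.919).

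The H4K20 methyltransferases, which write a mark of compacted chromatin, had 2 of 3 genes lower past the threshold (17.1% of protein-coding genes were). KMT5C (ENSG00000133247; chromosome 19, 55339853 to 55348120, plus strand) stood at 1.79, 1.84 and 1.86 CPM in knockout and at 2.49, 2.71 and 2.95 CPM in control replicates 1, 2 and 3. It was a low gene whose groups did not overlap (log2 fold change -0.57, SE 0.12, edgeR adjusted p = 0.00748). KMT5B averaged 31.6 ± 1.61 CPM in knockout and 38.8 ± 3.50 CPM in control cells (log2 fold change -0.30, edgeR adjusted p = 0.0276). Without knockout replicate 2 or 3 or control replicate 1 or 2 its edgeR adjusted p was 0.127, 0.0863, 0.0994 and 0.122. KMT5A, which writes the first methyl group at this site, had a log2 fold change of -0.15 (edgeR adjusted p = 0.152).

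SETD7 (ENSG00000145391; chromosome 4, 139495941 to 139606699, minus strand), which monomethylates H3K4 and many proteins other than histones, was the only one of the 19 that was higher past the threshold. It stood at 167, 168 and 164 CPM in knockout and at 136, 139 and 136 CPM in control replicates 1, 2 and 3. The groups were well apart (log2 fold change 0.27, SE 0.05, edgeR adjusted p = 0.00471). None of the other 6 H3K4 methyltransferases passed, and their log2 fold changes ran from -0.24 (SETD1A) to 0.02 (KMT2A). KMT2A showed how wide the replicates of long genes could be: 132, 97.3 and 80.5 CPM in knockout and 123, 105 and 77.4 CPM in control replicates 1, 2 and 3. SETD2, the H3K36 trimethylase, averaged 115 ± 11.5 CPM in knockout and 126 ± 16.2 CPM in control cells (log2 fold change -0.14, edgeR adjusted p = 0.389). The remaining 6 SET domain genes, KMT2E, SETD3, SETD4, SETD5, SETD6 and SETD9, did not pass, with log2 fold changes from -0.27 to 0.26. Without control replicate 3, SETD1A, SETD5 and SETD9 passed at edgeR adjusted p = 0.0306, 0.0208 and 0.0472, and SETD5 also passed without knockout replicate 1 (0.0407). Of the exon bases of SETD6, 21.4% also lie in exons of CNOT1 on the other strand, a gene with 18891 to 24321 counts per library, so the SETD6 level depends on a strand setting that is not known here.

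Demethylases had 7 of 17 tested genes lower (41.2%, against 17.1% of protein-coding genes) and none higher. KDM7A (ENSG00000006459; chromosome 7, 140084746 to 140177035, minus strand), a JmjC demethylase of dimethylated H3K9 and H3K27, stood at 11.4, 11.5 and 10.8 CPM in knockout and at 17.0, 16.7 and 14.7 CPM in control replicates 1, 2 and 3. All knockout libraries lay below all control libraries (log2 fold change -0.52, SE 0.08, edgeR adjusted p = 0.00139). KDM1A, the flavin-dependent demethylase LSD1 and the most abundant of the family by length (36.6 CPM per kb of exon in knockout and 43.3 in control cells), stood at 199.5, 202 and 197 CPM in knockout and at 241, 236 and 230 CPM in control replicates 1, 2 and 3. The shift was small beside the level, yet the groups did not overlap (log2 fold change -0.24, SE 0.05, edgeR adjusted p = 0.0103). Its call was lost without knockout replicate 2 or control replicate 2 (edgeR adjusted p = 0.0623 and 0.059).

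The H3K9 demethylases KDM3A and KDM3B both fell. KDM3A averaged 41.8 ± 3.22 CPM in knockout and 57.2 ± 4.63 CPM in control cells (SD, n = 3 each; log2 fold change -0.45, edgeR adjusted p = 0.00417). KDM3B averaged 83.4 ± 6.63 CPM in knockout and 108 ± 10.2 CPM in control cells (log2 fold change -0.37, edgeR adjusted p = 0.0149), and missed the threshold without knockout replicate 2 or control replicate 1 or 2 (edgeR adjusted p = 0.0623, 0.0545 and 0.0707). KDM6B, an H3K27 demethylase, averaged 16.2 ± 2.71 CPM in knockout and 21.8 ± 2.83 CPM in control cells (log2 fold change -0.43, edgeR adjusted p = 0.0474). It was the only member past the threshold that was lower with overlapping groups. Its paralogue on the X chromosome, KDM6A, averaged 41.0 ± 1.78 CPM in knockout and 41.1 ± 1.26 CPM in control cells (log2 fold change 0.00, edgeR adjusted p = 0.983).

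KDM2B, an H3K36 demethylase that also brings a polycomb complex to CpG islands, averaged 33.3 ± 2.66 CPM in knockout and 40.8 ± 3.50 CPM in control cells (log2 fold change -0.29, edgeR adjusted p = 0.0375). KDM4A, a demethylase of H3K9 and H3K36, averaged 21.4 ± 1.38 CPM in knockout and 25.9 ± 2.30 CPM in control cells (log2 fold change -0.27, edgeR adjusted p = 0.0436). Of the exon bases of KDM4A, 40.2% also belong to AL451062.3 on the same strand, a gene with 0 counts in all libraries, and how reads there were assigned is not known here. KDM2B, KDM4A and KDM6B each lost the call without knockout replicate 2 or 3 or control replicate 1 or 2. Their edgeR adjusted p was then 0.146, 0.116, 0.133 and 0.115 for KDM2B, 0.168, 0.128, 0.156 and 0.139 for KDM4A, and 0.139, 0.12, 0.146 and 0.139 for KDM6B. The 10 tested demethylases that did not pass ranged from -0.18 (KDM5A) to 0.11 (KDM4C), and all 3 tested H3K4 demethylases of the KDM5 group were among them. KDM4E, KDM4F and KDM5D were not tested.

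Arginine methyltransferases had 2 of 7 tested genes lower (28.6%, against 17.1% of protein-coding genes) and none higher. PRMT1, the main enzyme for asymmetric dimethylarginine, was the most abundant by length, with 42.9 CPM per kb of exon in knockout and 49.8 in control cells. It stood at 189, 209 and 219 CPM in knockout and at 213, 235 and 269 CPM in control replicates 1, 2 and 3, and the groups overlapped (log2 fold change -0.21, edgeR adjusted p = 0.139). PRMT2 averaged 36.6 ± 0.967 CPM in knockout and 44.8 ± 0.448 CPM in control cells (SD, n = 3 each; log2 fold change -0.30, edgeR adjusted p = 0.00486). PRMT7, a monomethylase, averaged 26.6 ± 0.901 CPM in knockout and 31.0 ± 1.51 CPM in control cells (log2 fold change -0.22, edgeR adjusted p = 0.0379). The PRMT7 call was lost without knockout replicate 1, 2 or 3 or control replicate 1 or 2, at edgeR adjusted p = 0.128, 0.106, 0.0887, 0.117 and 0.166. The other genes that did not pass lay between -0.11 (PRMT9) and 0.22 (PRMT3), and PRMT3, a ribosomal protein methyltransferase, passed without control replicate 3 (edgeR adjusted p = 0.0316). PRMT8, an enzyme of the brain, had no counts.

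Ratios between paralogues within a library do not depend on how libraries are scaled, and 9 pairs were compared. The groups did not overlap for 6 of the 9, each at an exact two-sided permutation p = 0.1 (0.15 after adjustment over the 9 pairs), the smallest p that 3 against 3 allows, so no pair could pass 0.05. Each of these pairs holds a member that was lower past the threshold. For levels of single genes, the groups did not overlap for 41.6% of all tested genes. No such share was taken for ratios between other genes. The log2 ratio of EZH2 to EZH1 was 2.01 ± 0.13 in knockout and 2.52 ± 0.18 in control cells (SD, n = 3 each), and that of DNMT3A to DNMT3B was -0.95 ± 0.06 in knockout and -0.15 ± 0.12 in control cells. That of TET1 to TET3 was -3.00 ± 0.05 in knockout and -2.55 ± 0.04 in control cells, a tighter spread than either gene had alone. KDM6A to KDM6B differed in the other direction, at 1.35 ± 0.18 in knockout and 0.92 ± 0.16 in control cells. The 2 further pairs whose groups were apart had smaller differences, -0.17 for KDM1A to KDM1B and 0.17 for HDAC1 to HDAC2. The groups overlapped for KMT2A to KMT2B (exact p = 0.2), PRMT1 to PRMT5 (0.4) and KMT2C to KMT2D (0.9). Antisense PRMT5-AS1, with 4 to 13 counts per library, covers 27.1% of the exon bases of PRMT5, and how reads there were assigned is not known here.

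Many long members varied between replicates in the same way in both groups. The level in replicate 1 was above that in replicate 3 for 51 of the 67 tested members in knockout and 48 of 67 in control cells. For KMT2D it was 1.76 times the level of replicate 3 in knockout and 1.505 times in control cells, and for KMT2A it was 1.64 times in knockout and 1.59 times in control cells. Some shorter members had ratios below 1, such as SETD9 at 0.724 in knockout and 0.705 in control cells, while SIRT4, the shortest, had 1.21 in knockout and 1.12 in control cells. Across members, the log2 ratio followed the log10 length of the principal transcript at Pearson r = 0.616 in knockout and 0.655 in control cells, and the ratios in knockout and control followed each other at r = 0.885 (Spearman 0.876). These are descriptions over 67 genes that share the same libraries. Not every long member varied so: the ratio was 0.934 in knockout and 0.924 in control cells for HDAC2, and 1.018 and 1.001 for SETD7. The spread enters the error of the members that show it. In a fit with a block for the replicate number, 37 members were lower and 7 higher past the threshold, against 20 and 2 without it. Over all tested genes, 50.9% passed with the block and 28.0% without it. Where the spread came from was not tested.

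**Figure D3:**
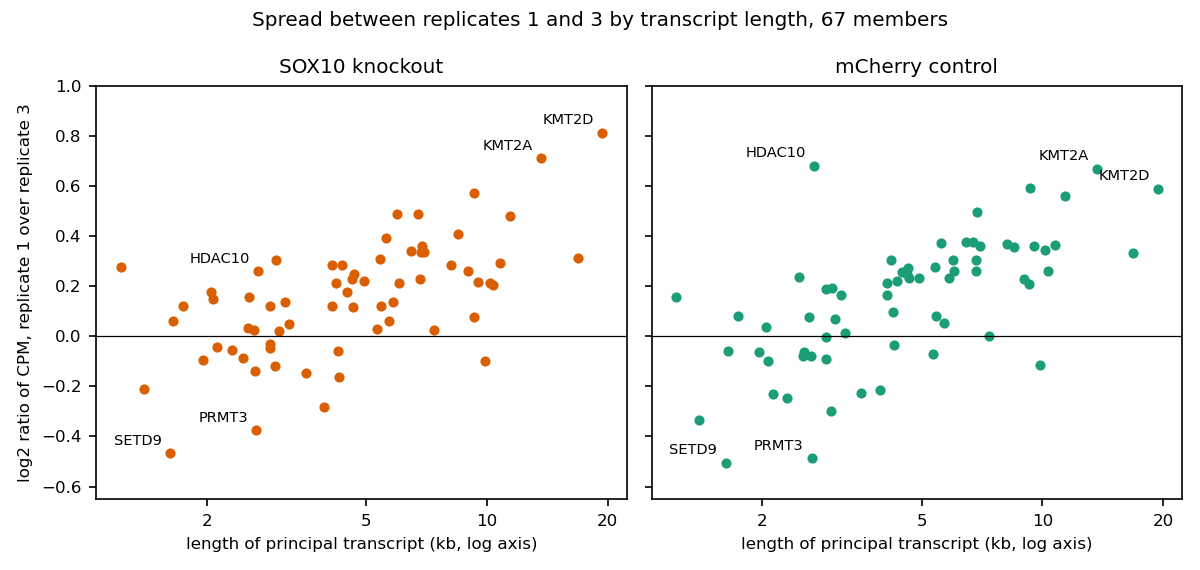
Log2 ratio of CPM in replicate 1 over replicate 3 for the 67 tested members against the length of the principal transcript in kb on a log axis, with knockout libraries on the left and control libraries on the right. Each point is a gene and the line marks equal levels. KMT2A and KMT2D lie high in both panels and SETD9 and PRMT3 low in both, while HDAC10, a gene under 1 CPM, is high in control libraries at 0.68 and lies at 0.26 in knockout libraries.

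RefSeq promoters (GRCh38.p14) were matched for 67 of the 72 members, with no entry for DNMT3L, HDAC5, KDM4E, SETD1B and SIRT7. They are shown for the members with the largest decreases that have an entry, DNMT3A, HDAC9 and TET1, and for TET2, the member of the same family that also fell, all chosen after their values were seen. Each is the 250 bases before the start, read 5′ to 3′ on the gene's strand, and capitals mark matches on either strand to AACAAT (a SOX-type motif), TTTNNCGC (E2F-type) or CACGTG (E-box).
DNMT3A, chr2:25342484-25342733, minus strand: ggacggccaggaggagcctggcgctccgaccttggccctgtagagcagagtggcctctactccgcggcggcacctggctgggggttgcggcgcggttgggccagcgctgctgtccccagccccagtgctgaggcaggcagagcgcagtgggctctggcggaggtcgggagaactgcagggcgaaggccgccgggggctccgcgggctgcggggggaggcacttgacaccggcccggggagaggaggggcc
HDAC9, chr7:18495499-18495748, plus strand: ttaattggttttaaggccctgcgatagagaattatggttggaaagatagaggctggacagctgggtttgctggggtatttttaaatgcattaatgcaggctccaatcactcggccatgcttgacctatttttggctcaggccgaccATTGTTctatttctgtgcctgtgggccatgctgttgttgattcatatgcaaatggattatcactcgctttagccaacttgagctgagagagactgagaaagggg
TET1, chr10:68560087-68560336, plus strand: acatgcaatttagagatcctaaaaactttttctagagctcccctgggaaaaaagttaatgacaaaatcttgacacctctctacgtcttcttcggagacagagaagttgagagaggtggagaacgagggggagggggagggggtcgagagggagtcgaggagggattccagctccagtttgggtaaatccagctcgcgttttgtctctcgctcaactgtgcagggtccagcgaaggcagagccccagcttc
TET2, chr4:105145625-105145874, plus strand: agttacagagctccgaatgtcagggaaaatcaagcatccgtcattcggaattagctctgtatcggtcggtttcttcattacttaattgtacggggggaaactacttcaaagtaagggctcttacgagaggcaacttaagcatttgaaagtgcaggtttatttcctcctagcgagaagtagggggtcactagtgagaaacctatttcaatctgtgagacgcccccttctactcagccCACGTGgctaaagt
The HDAC9 window holds AACAAT on the other strand, read ATTGTT and beginning 104 bases before the start, and lies inside the annotated gene, so it belongs to an internal start. The TET2 window holds CACGTG beginning 14 bases before the start. The DNMT3A and TET1 windows hold none of the searched letters. In windows that reach from 250 bases before to 50 bases after the start, AACAAT was found in 6 of the 67 member promoters (8.96%) and in 10.1% of all 35116 promoters, TTTNNCGC in 7 (10.4%) and in 6.89%, and CACGTG in 9 (13.4%) and in 7.26%. Of the 19 lower members with an entry, 2, 2 and 1 held these motifs, and of the 44 that did not pass, 4, 5 and 8 did. In the 250 bases before the start alone, the window printed above, AACAAT was in 5 member promoters (7.46%) and 8.98% of all, TTTNNCGC in 4 (5.97%) and 5.92%, and CACGTG in 9 (13.4%) and 6.34%. No lower member held TTTNNCGC there. The 7 members with the E2F-type letters in the longer window were DNMT1, EZH1, EZH2, KDM1B, KMT2D, PRMT7 and SIRT6. No matches to different motifs overlap in the windows shown, a match is a description of sequence only, and a window without one says nothing about a factor's binding.

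Companion genes of the same machinery, taken from lists that go with each family, were counted in the same test. Their shares are to be read beside those of protein-coding genes, 17.1% lower and 15.9% higher past the threshold. With total-count scaling, fewer of them were lower: 7 polycomb subunits, 3 COMPASS subunits, 4 corepressor subunits, 1 acetyltransferase gene, 3 partners and readers of DNA methylation and 1 partner of arginine methylation, against 12, 5, 8, 3, 5 and 4 below. Of 30 tested polycomb subunits, 12 (40%) were lower and 2 (6.67%) higher. CBX2, a chromodomain reader of H3K27 methylation, averaged 10.7 ± 0.581 CPM in knockout and 25.1 ± 2.12 CPM in control cells (SD, n = 3 each; log2 fold change -1.23, edgeR adjusted p = 1.12e-05). PHF19, which helps polycomb complex 2 bind chromatin, averaged 70.7 ± 2.22 CPM in knockout and 106 ± 1.27 CPM in control cells (log2 fold change -0.59, edgeR adjusted p = 7.88e-05). PCGF5, a subunit of polycomb complex 1, rose (113 ± 1.64 CPM in knockout and 80.2 ± 2.86 CPM in control cells, log2 fold change 0.50, edgeR adjusted p = 0.000241), as did PCGF1 (log2 fold change 0.20, edgeR adjusted p = 0.0468). Without control replicate 3 the PCGF1 call held, and without any other library its edgeR adjusted p was 0.0643 to 0.194. The count of lower polycomb subunits was 4 without knockout replicate 2 and 5 without control replicate 2.

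Among 13 proteins with a JmjC domain outside the KDM names, 3 (23.1%) were lower and 1 (7.69%) higher. Over protein-coding genes these shares were 17.1% and 15.9%. HR, an H3K9 demethylase named for the hairless mouse, averaged 19.4 ± 1.15 CPM in knockout and 60.6 ± 5.75 CPM in control cells (log2 fold change -1.64, edgeR adjusted p = 2.45e-06). JARID2, a partner of EZH2 without demethylase activity, averaged 17.8 ± 2.17 CPM in knockout and 32.6 ± 3.95 CPM in control cells (log2 fold change -0.87, edgeR adjusted p = 0.000614). RIOX2 rose (log2 fold change 0.22, edgeR adjusted p = 0.0173), a call lost without knockout replicate 2 or 3 or control replicate 2 (edgeR adjusted p = 0.0791, 0.0529 and 0.0984). Of 19 other lysine methyltransferases, 4 (21.05%) were lower and 1 (5.26%), MECOM, was higher (log2 fold change 0.33, edgeR adjusted p = 0.00584). SMYD1, a methyltransferase of muscle, averaged 0.0174 ± 0.00705 CPM in knockout and 1.16 ± 0.0773 CPM in control cells, the knockout level being under that of 3 counts (0.0383 to 0.0417 CPM). SETDB2 was also lower (log2 fold change -0.29, edgeR adjusted p = 0.0092, and 0.0501 without knockout replicate 2). The lower count in this list was 1 without knockout replicate 2 and 6 without control replicate 3.

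Of 29 tested subunits of HDAC and LSD1 corepressors, 8 (27.6%) were lower and none higher past the threshold in edgeR. At an unadjusted p under 0.05, 2 were higher, and 1 passed with DESeq2, total counts, no filter or the CPM filter and none with limma-voom. HMG20B, a subunit of the LSD1 complex, averaged 16.1 ± 1.40 CPM in knockout and 41.6 ± 2.71 CPM in control cells (log2 fold change -1.37, edgeR adjusted p = 6.2e-06), and ING1, a SIN3 subunit, fell by 0.45 on the log2 scale (edgeR adjusted p = 0.000736). Of 13 COMPASS subunits, which carry the KMT2 and SETD1 enzymes, 5 (38.5%) were lower and none higher, among them ASH2L and PSIP1 (log2 fold changes -0.42 and -0.36, edgeR adjusted p = 0.00117 and 0.003). Of 18 genes on the acetyltransferase list, which holds subunits such as BRD1 beside enzymes, 3 (16.7%) were lower and none higher. The lower share was near the 17.1% of protein-coding genes. The lower count was 1 with DESeq2 size factors, no filter or the CPM filter and 2 with limma-voom. BRD1 and GTF3C4 were among the 3 (log2 fold changes -0.38 and -0.23, edgeR adjusted p = 0.0154 and 0.0437). Without knockout replicate 2 or 3 or control replicate 1 or 2, the lower counts were 3, 4, 4 and 3 for the corepressors, 2, 3, 2 and 3 for COMPASS, and 0, 1, 0 and 0 for the acetyltransferases. Without control replicate 3 they were 11, 5 and 5. At an unadjusted p under 0.05 in edgeR, 1 acetyltransferase gene and no COMPASS subunit were higher, and none passed with DESeq2 or limma-voom. The BRD1 call was lost without knockout replicate 2 or control replicate 1 or 2 (edgeR adjusted p = 0.0682, 0.0592 and 0.0585), and the GTF3C4 call without these or knockout replicate 3 (edgeR adjusted p 0.135 to 0.169).

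Among 16 genes for partners and readers of DNA methylation, 5 (31.25%) were lower and 2 (12.5%) higher. Over protein-coding genes these shares were 17.1% and 15.9%. IDH1 and IDH2, which make the 2-oxoglutarate that TET and JmjC enzymes consume, averaged 74.6 ± 8.15 and 8.53 ± 0.745 CPM in knockout and 144 ± 14.7 and 16.3 ± 1.54 CPM in control cells (log2 fold changes -0.95 and -0.94, edgeR adjusted p = 0.000173 and 0.000151). MAT2A, which makes the methyl donor S-adenosylmethionine, and ZBTB4, a reader of methylated DNA, rose by 0.20 and 0.35 on the log2 scale (edgeR adjusted p = 0.0346 and 0.0261). Neither rise passed without knockout replicate 1 or 2 or control replicate 2 or 3, at edgeR adjusted p of 0.0538 to 0.145 for MAT2A and 0.0505 to 0.0875 for ZBTB4, and MAT2A also missed it without control replicate 1 (0.0555). The number of these genes that were lower was 2 without knockout replicate 2 or control replicate 2 and 3 without knockout replicate 3 or control replicate 1. Of 14 genes listed as partners of arginine methylation, 4 (28.6%) were lower and 1 (7.14%) higher. BTG1 averaged 78.2 ± 1.38 CPM in knockout and 129 ± 3.39 CPM in control cells (log2 fold change -0.72, edgeR adjusted p = 2.16e-05). CARM1, itself an arginine methyltransferase, had a log2 fold change of -0.30 (edgeR adjusted p = 0.0227), and BTG2 rose (0.41, edgeR adjusted p = 0.00178). Lower partners numbered 1 without knockout replicate 2 or 3 or control replicate 1 or 2, and CARM1 then stood at edgeR adjusted p of 0.0632 to 0.0831.

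DNMT1 and EZH2 are made mainly in dividing cells, so replication genes were counted beside them. Of 31 replication and G1/S genes, 17 (54.8%) were lower and none higher (none at an unadjusted p under 0.05 in edgeR, nor with DESeq2 or limma-voom). Of protein-coding genes 17.1% were lower. The median log2 fold change of the replication genes was -0.30. E2F2 averaged 8.52 ± 0.592 CPM in knockout and 14.7 ± 0.196 CPM in control cells (log2 fold change -0.78, edgeR adjusted p = 9.8e-05), and TYMS averaged 58.4 ± 2.62 CPM in knockout and 93.7 ± 8.32 CPM in control cells (log2 fold change -0.68, edgeR adjusted p = 0.000248). What part this had in the levels of the enzymes was not tested.

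**Figure D4:**
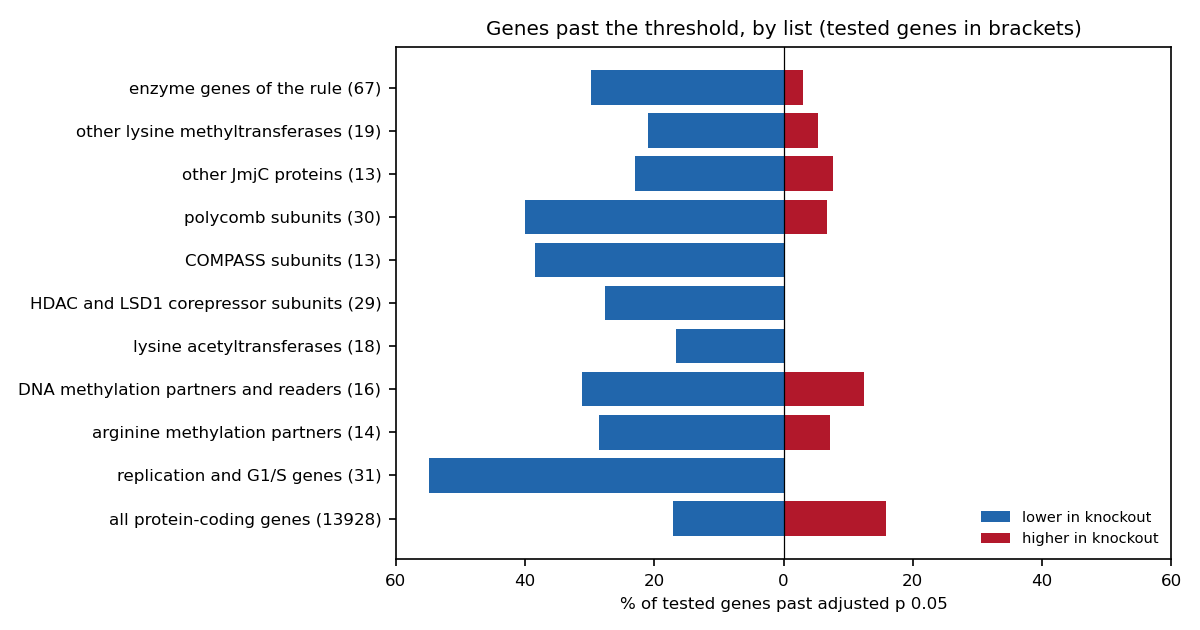
Percent of tested genes past an adjusted p of 0.05 that were lower (blue, left of 0) or higher (red, right of 0) in SOX10 knockout than in control cells, for the enzyme genes, 9 companion lists and all protein-coding genes, with the number tested in brackets. The enzyme genes stand at 29.9% lower and 2.99% higher, the replication genes at 54.8% lower, and protein-coding genes at 17.1% lower and 15.9% higher.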

How the data were processed

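For each gene the authors deposited raw counts, without normalization, of 3 SOX10 knockout and 3 control libraries. HISAT2, HTSeq and the build hg38 are named per the submitters' processing notes, and RNeasy Plus Mini extraction and the KAPA Stranded mRNA-Seq kit per the labels' protocols. Versions, annotation release and strand setting were not given in the sources used here. How reads in overlapping genes were assigned is therefore not known here.

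All 58721 gene identifiers matched GENCODE 29 (GRCh38), which gave symbols, types and coordinates. Total counts were 70075002, 77390247 and 78148565 in knockout replicates 1, 2 and 3 and 71793584, 74745810 and 74970700 in control replicates 1, 2 and 3. At 3 counts a gene stood at 0.0383 to 0.0417 CPM, and this floor covers counting error only. Replicates differed by more than counting noise, which separate libraries of the same culture could also do, and no pair was merged.

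The test was that of edgeR 4.0.16, run in R 4.3.3 (filterByExpr, TMM scaling, two-sided quasi-likelihood test without covariates, Benjamini-Hochberg adjustment over 19263 genes, threshold 0.05), and the procedure was tested on simulated data. CPM uses the TMM-scaled library sizes. A level per kb is CPM divided by the length of the merged exons. Exact permutation tests used the 20 assignments of 6 libraries. Alternatives were DESeq2 1.42.0, limma-voom 3.58.1, total-count scaling, scaling with DESeq2's size factors, no filter, a filter that asks 1 CPM of 3 libraries, a block for the replicate number, and fits without each library. Levels per kb of the principal transcript were an alternative chosen after seeing the data. Python 3.11.15 (pandas 2.3.3, numpy 2.4.6, matplotlib 3.10.9) made tables and plots.

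Values in every library are given for members past the threshold with a log2 change of at least 0.5 in size and for the most abundant member of each family by exon length in control libraries. Other members past it are given by mean and SD, the rest by range. Of each companion list up to 2 genes per direction with the smallest p are named. KMT2A, SETD2, the library values of SETD7 and SIRT7 and the printed promoters were chosen after their values were seen. The symbols EZHIP, MIDEAS and LSH of the companion lists were not matched and are not used here. The members and lists were chosen with earlier results of these data known.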

Additional observations from a re-analysis of the deposited data

How the results depend on the processing

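Of the 22 members past the threshold, 12 kept their call in all 12 settings other than the replicate block: DNMT3A, HDAC5, HDAC9, TET1, KMT5C, TET2, KDM7A, EZH2, KDM3A, PRMT2, SETD7 and SIRT7. The other 10 lost it without some library, at the values given beside each. With all libraries kept, DNMT3B, HDAC2, KDM2B, KDM4A, KDM6B, KMT5B and PRMT7 also lost it with total-count scaling. So did KDM4A, KDM6B and PRMT7 with DESeq2's size factors, HDAC2, KDM4A and PRMT7 without a filter, and KDM2B, KDM4A and KDM6B with the CPM filter. With total-count scaling 13 members were lower and 3 higher, while DESeq2 gave 23 lower and 3 higher. The leave-one-out fits gave 10 to 24 members lower and 2 to 5 higher, and over all genes 1794 to 2958 lower. Without control replicate 3 the numbers were highest, and the cause was not tested.

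The replicate numbers were not taken to pair the samples, since the labels tie them to no shared batch or day. Deviations from the group means correlated at 0.302, -0.004 and 0.314 for numbers 1, 2 and 3, and at -0.332 and -0.284 between numbers 1 and 3. Numbers 1 and 3 thus did deviate together, and knockout replicate 2 did not correlate best with its own number. Where numbers 1 and 3 differ in both groups, number 2 can lie near both group means. Its low value therefore cannot decide whether the numbers pair the samples. With the replicate block 4637 genes were higher and 5176 lower, which is 50.9% of those tested, and 7 members were higher and 37 lower. All 22 members kept their call under the block, and 22 of the 45 others passed, DNMT1, TET3 and HDAC6 among them.

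The members whose sign turned in some setting were all among those that did not pass. The median over all genes was 0.027 with total counts and ran from -0.021 to 0.002 in leave-one-out fits. With total counts HDAC1 was at 0.012, SETD3 at 0.004, SETD6 at 0.01 and KDM6A at 0.039. KDM6A was also at 0.007 with DESeq2 and with its size factors, at 0 (to 3 decimals) without a filter and at 0.016 with the CPM filter. In leave-one-out fits the log2 fold change ran from -0.076 to 0.028 for HDAC1, -0.048 to 0.093 for HDAC7, -0.154 to 0.033 for KDM2A, -0.126 to 0.088 for KDM4B, -0.13 to 0.008 for KDM5B, -0.124 to 0.022 for KDM5C, -0.021 to 0.033 for KDM6A and -0.048 to 0.099 for EZH1. It ran from -0.19 to 0.185 for KMT2A, -0.314 to 0.104 for KMT2D, -0.249 to 0.006 for KMT2E, -0.102 to 0.133 for SETD1B, -0.02 to 0.067 for SETD4, -0.074 to 0.008 for SETD6 and -0.114 to 0.154 for SIRT4. The difference (knockout minus control) in the paralogue ratio KMT2C:KMT2D on the log2 scale ran from -0.187 to 0.063, and the other 8 paralogue differences kept their sign. In control libraries the same member of each family was most abundant by principal transcript length, and in knockout libraries KMT5A led its family by exon length and EZH2 by principal transcript. With 3 counts a gene stood at 0.0383 to 0.0417 CPM, below which no level could be read.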

Other observations

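Length and fold change were weakly related among the members. Over the 67 tested members, the log2 fold change of knockout over control followed the log10 length of the principal transcript at Pearson r = -0.314 (Spearman -0.340), against -0.049 (Spearman -0.107) over 13928 tested protein-coding genes. Genes of the same libraries are not independent replicates, and these values are descriptions.

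Member promoters held more CpG than RefSeq promoters at large, a set not limited to genes tested here. No comparison with promoters of tested genes was made. Their median was 29 CpG and 66% G or C over the 300 bases from 250 before to 50 after the start, against 14 CpG and 58.7% over all 35116 RefSeq promoters. HDAC9 stood low, at 5 CpG and 47.3%, and KDM7A high, at 56 CpG and 77%.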
